A study of Mus musculus with 2 samples.

Results

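*Txnip*, *Arrdc4* and the glucose-responsive transcription factor pair *Mlxipl* and *Mlx*, together with the thioredoxin *Txn1* and its reductase *Txnrd1*, were followed through all cell classes of mouse islets with and without *Npc1*. These are 6 of the 31053 genes counted in the study, taken as a list of symbols, and all 6 were found. The list was chosen by the higher *Txnip* level in *Npc1*-/- β cells, so that difference is given as a description and supports nothing by itself. Islets of 3 female mice aged 2 weeks were pooled per genotype and run as 1 single-cell 3' RNA library each, from WT mice and from littermates that lacked *Npc1* in every tissue (*Npc1*-/-) on the C57BL/6J background. *Npc1* encodes a lysosomal cholesterol transporter. With 1 library per genotype, genotype cannot be told apart from pool, dissociation or library, no difference between genotypes could be tested, and every interval below covers counting error only.

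ChREBP, the product of *Mlxipl*, binds DNA together with MLX when metabolites of glucose build up in the cell. Its binding site, the carbohydrate response element, consists of 2 E-box-like sites set 5 bases apart, and *Txnip* and *Arrdc4* are among its best known target genes. Both encode α-arrestins, proteins that restrain glucose uptake by drawing glucose transporters into the cell. TXNIP also binds thioredoxin (*Txn1*) and blocks its reducing activity, which thioredoxin reductase (*Txnrd1*) otherwise renews, and in β cells it is known as a gene switched on by glucose and linked to cell loss.

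All positions are on GRCm38 (mm10), which is also the build named in the submitters' processing notes. *Txnip* (ENSMUSG00000038393) lies on chromosome 3 from 96557957 to 96561883 on the plus strand. *Arrdc4* (ENSMUSG00000042659) is a minus-strand gene of chromosome 7, 68736995 to 68749241. *Mlxipl* (ENSMUSG00000005373) lies on chromosome 5 from 135089890 to 135138382, and *Mlx* (ENSMUSG00000017801) on chromosome 11 from 101087277 to 101092207, both on the plus strand. *Txn1* (ENSMUSG00000028367) is a minus-strand gene of chromosome 4, 57943373 to 57956411, and *Txnrd1* (ENSMUSG00000020250) lies on chromosome 10 from 82833951 to 82897712 on the plus strand. The RefSeq promoter windows of *Txnip* and *Arrdc4* are shown because these were the 2 members with the largest difference in β-like cells. Each run holds the 250 bases before the RefSeq start, written 5′ to 3′ on the strand of the gene, chr3:96557707-96557956 on the plus strand for *Txnip* and chr7:68749239-68749488 on the minus strand for *Arrdc4*. Capitals mark every match to CACGNG or CNCGTG, which are reverse complements of each other, so that both strands are covered. The full E-box CACGTG matches both spellings.
Txnip: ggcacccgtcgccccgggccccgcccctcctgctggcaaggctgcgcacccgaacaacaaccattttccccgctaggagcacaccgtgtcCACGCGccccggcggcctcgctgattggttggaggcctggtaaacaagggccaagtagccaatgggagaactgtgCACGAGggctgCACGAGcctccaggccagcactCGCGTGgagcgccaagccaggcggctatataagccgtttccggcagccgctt
Arrdc4: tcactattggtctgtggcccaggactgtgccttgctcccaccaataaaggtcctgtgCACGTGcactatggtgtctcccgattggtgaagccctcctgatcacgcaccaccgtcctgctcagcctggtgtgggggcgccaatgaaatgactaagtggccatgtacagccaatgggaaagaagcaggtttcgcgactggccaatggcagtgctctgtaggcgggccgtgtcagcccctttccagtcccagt

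The *Txnip* window held 4 such sites, and 2 of them, both CACGAG, began 85 and 74 bases before the start and stood exactly 5 bases apart. That arrangement was present in 27 of 32807 promoter windows of 300 bases (0.0823%), whereas at least 1 such site was present in 27.5% and the full E-box in 7.15%. The *Arrdc4* window held 1 site, a full E-box that began 193 bases before the start. *Mlxipl* has 2 annotated starts, and the window of the upstream start held a CACGAG site 196 bases and a full E-box 98 bases before it, while the window of the downstream start held none. The 3' libraries count transcripts from both *Mlxipl* starts together. *Mlx* had a full E-box 40 bases before its start, the window of *Txn1* held no match, and 1 of the 3 *Txnrd1* windows held 2 sites. Of the 30 genes listed here as ChREBP targets, 23 had a window, and the spaced pair was found in *Txnip* and *Pklr*. A match is a description of letters and does not show that a factor binds there.

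The deposited matrices held 8569 WT and 7646 *Npc1*-/- barcodes, of which 4628 and 4269 passed the filters, with medians of 18905 and 21381 unique molecular identifiers (UMIs) per barcode. The libraries shared 12 barcode strings, 3 of them among the kept barcodes. *Npc1* itself stood at 8.40 CPM (counts per 1000000 UMIs) in the kept WT barcodes and 4.14 CPM in those of *Npc1*-/-, lower but not absent. Barcodes were assigned by their leading hormone, if it made up 10% or more of UMIs, or otherwise by at least 3 detected markers, which gave 1833 WT and 1826 *Npc1*-/- β-like, 1048 and 857 α-like, 189 and 141 δ-like, and 411 and 442 PP-like barcodes. Endothelial-like barcodes numbered 437 and 445, stellate-like 255 and 265, mesenchymal-like 54 and 64, and macrophage-like 53 and 33. All 9 β cell markers were highest in the β-like class in both libraries, but just 3 (WT) and 2 (*Npc1*-/-) of 5 PP markers were highest in the PP-like class. Immediate early and heat shock genes, which respond to handling of cells, were lower in the *Npc1*-/- library in every class, with list medians of the log2 ratio to WT, relative to the median gene of the class, from -0.42 in endothelial-like to -1.59 in β-like barcodes, and their values are given beside the results they move with.

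*Txnip* had 3638 UMIs in WT β-like barcodes and 10664 in *Npc1*-/- β-like barcodes. Its level was 66.4 CPM (64.3 to 68.6, exact Poisson 95% interval) in WT and 197 CPM (193 to 201) in *Npc1*-/-. Because the median of the 8858 genes with enough counts (at least 5 CPM in either genotype and 20 UMIs in all) differed by 0.12 on the log2 scale between the libraries in this class, differences are given as the log2 ratio of *Npc1*-/- over WT CPM minus that of the median gene (relative log2 ratio). For *Txnip* it was 1.45 (1.39 to 1.50), a 2.73-fold difference. *Arrdc4*, the other α-arrestin member, had 338 and 857 UMIs, or 6.17 CPM (5.53 to 6.86) in WT and 15.8 CPM (14.8 to 16.9) in *Npc1*-/-, with a relative log2 ratio of 1.24 (1.06 to 1.43). *Txnip* and *Arrdc4* ranked 3 and 4 from the top of the 8858 genes, behind *Fev* and *Gria3*, named here after their values were seen. A relative log2 ratio of at least 1 was reached by 15 genes (0.169%), 2 of them members, and of at most -1 by 44 genes (0.497%), none of them members. The list was chosen by the *Txnip* difference, so the rank of *Txnip* and its place among the 15 were given in advance. The count of 2 is therefore no result about the members. These counts and ranks rest on the floor of 5 CPM, since with a floor of 1 CPM 66 genes reached 1, with no floor 656, and with a floor of 20 CPM 3. The floor also admits a gene through either library. *Fev* (1.50 CPM in WT and 5.50 CPM in *Npc1*-/-), *Gria3* (4.05 and 13.6 CPM) and others of the 15 reached 5 CPM only in *Npc1*-/-, where they are high.

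The other members differed little in β-like barcodes. *Mlxipl*, which encodes ChREBP, was at 156 CPM in WT against 188 CPM in *Npc1*-/-, a relative log2 ratio of 0.15 (0.11 to 0.19). *Mlx*, its DNA-binding partner, was at 24.5 and 23.7 CPM, a relative log2 ratio of -0.17 (-0.28 to -0.06). *Txn1* was at 173 CPM in WT against 159 CPM in *Npc1*-/-, a relative log2 ratio of -0.24 (-0.29 to -0.20). *Txnrd1* was at 38.8 and 47.8 CPM, a relative log2 ratio of 0.18 (0.10 to 0.26). So the transcripts of the factor pair and of the thioredoxin cycle lay within 0.25 log2 units of the median gene, while both α-arrestin targets lay more than 1 unit above it.

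**Figure D1:**
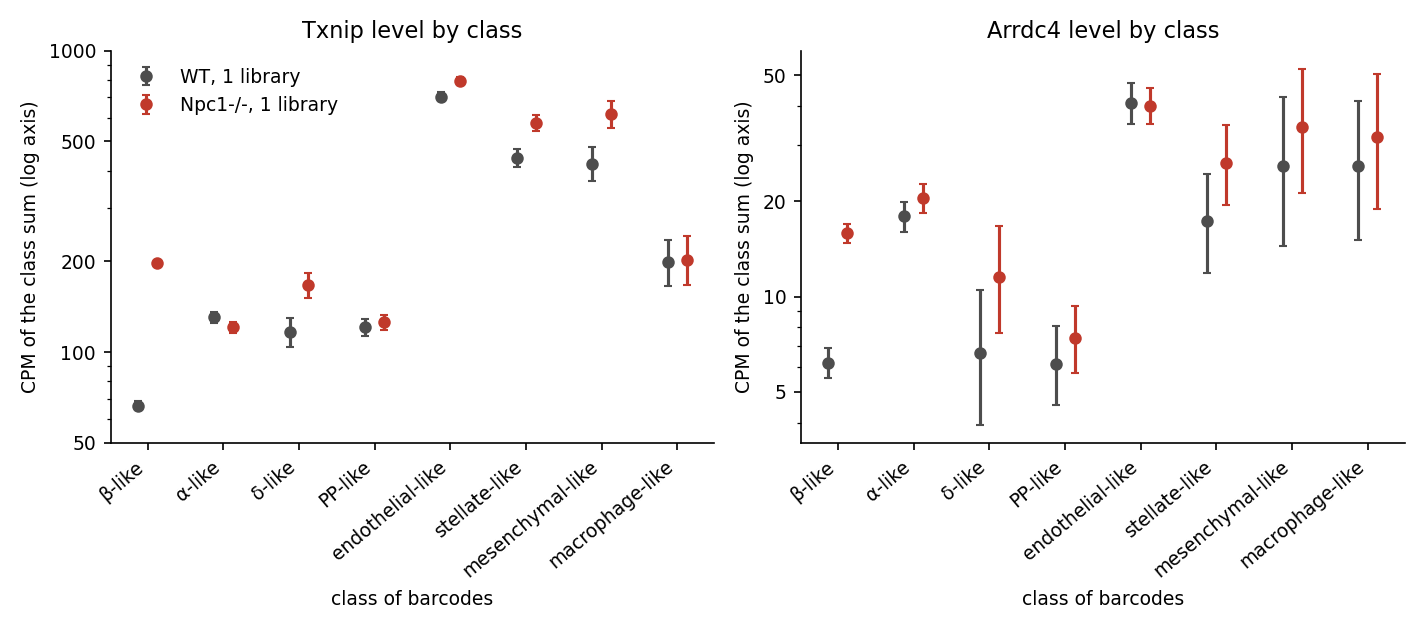
Level of *Txnip* (left) and *Arrdc4* (right) in CPM of the summed UMIs of each class, on log axes, in the WT and the *Npc1*-/- library. Points are 1 library each and bars are exact Poisson 95% intervals. The WT β-like point of *Txnip* (66.4 CPM) is the lowest of all 16, and the *Npc1*-/- β-like point (197 CPM) lies above the other hormone classes of that library. Insulin makes up 51.9% of WT and 49.3% of *Npc1*-/- β-like UMIs, which lowers the CPM of other genes there and was not corrected for.

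Across classes, *Txnip* was highest in endothelial-like barcodes, at 704 CPM in WT against 792 CPM in *Npc1*-/-. Stellate-like (440 and 576 CPM) and mesenchymal-like barcodes (422 and 616 CPM) came next and were not apart from each other beyond their intervals in either library. In the WT library macrophage-like barcodes followed at 199 CPM, then α-like at 130 CPM, PP-like at 121 CPM and δ-like at 116 CPM, these last 3 with overlapping intervals, and β-like barcodes came last at 66.4 CPM. In the *Npc1*-/- library β-like barcodes moved to the fifth place at 197 CPM, with an interval that overlapped macrophage-like barcodes (202 CPM), above δ-like (167 CPM), PP-like (125 CPM) and α-like barcodes (121 CPM). In CPM, the class that held the least *Txnip* among the hormone classes in WT thus held the most in *Npc1*-/-. These levels are not corrected for hormone share, and insulin makes up 51.9% of WT and 49.3% of *Npc1*-/- β-like UMIs. Whether β-like barcodes would still be lowest in WT after such a correction was not tested.

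Outside the β-like class the relative log2 ratio of *Txnip* reached 1 nowhere, and neither did that of any other member with enough counts. Of all genes tested, 0.121% reached 1 in α-like, 0.251% in PP-like, 0.737% in endothelial-like, 1.24% in stellate-like, 1.62% in δ-like, 2.58% in mesenchymal-like and 3.67% in macrophage-like barcodes. For *Txnip* it was 0.51 (0.29 to 0.72) in δ-like, 0.55 (0.32 to 0.79) in mesenchymal-like, 0.40 (0.27 to 0.53) in stellate-like and 0.16 (0.09 to 0.23) in endothelial-like barcodes. A ratio of 0.5 was reached by 8.35% of δ-like and 13.2% of mesenchymal-like genes tested. In PP-like (-0.01, -0.13 to 0.11) and macrophage-like barcodes (0.01, -0.37 to 0.38) the interval included 0. In α-like barcodes *Txnip* was slightly lower in *Npc1*-/-, at -0.14 (-0.22 to -0.05), but 0.00028 without the barcodes richest in immediate early and heat shock UMIs. Whether the β-like ratio differs from those of other classes could not be tested with 1 library per genotype.

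*Arrdc4* was also highest in endothelial-like barcodes, at 40.9 CPM in WT against 40.1 CPM in *Npc1*-/-. The interval of its relative log2 ratio excluded 0 in 1 of 8 classes, the β-like class. The ratio itself was above 0 in 7 of the 8, and intervals were wide where UMIs were few. α-like barcodes held 17.9 CPM in WT and 20.4 CPM in *Npc1*-/-, a relative log2 ratio of 0.16 (-0.06 to 0.38). In δ-like barcodes 18 and 28 UMIs gave 0.77 (-0.12 to 1.73), too few counts to place it. In stellate-like barcodes 33 and 49 UMIs gave 0.61 (-0.05 to 1.30), again too few. In WT, again not corrected for insulin share, β-like (6.17 CPM), δ-like (6.63 CPM) and PP-like barcodes (6.13 CPM) shared the lowest *Arrdc4* levels with overlapping intervals. In *Npc1*-/-, PP-like barcodes stood at 7.38 CPM while β-like barcodes stood at 15.8 CPM, below the α-like 20.4 CPM.

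**Figure D2:**
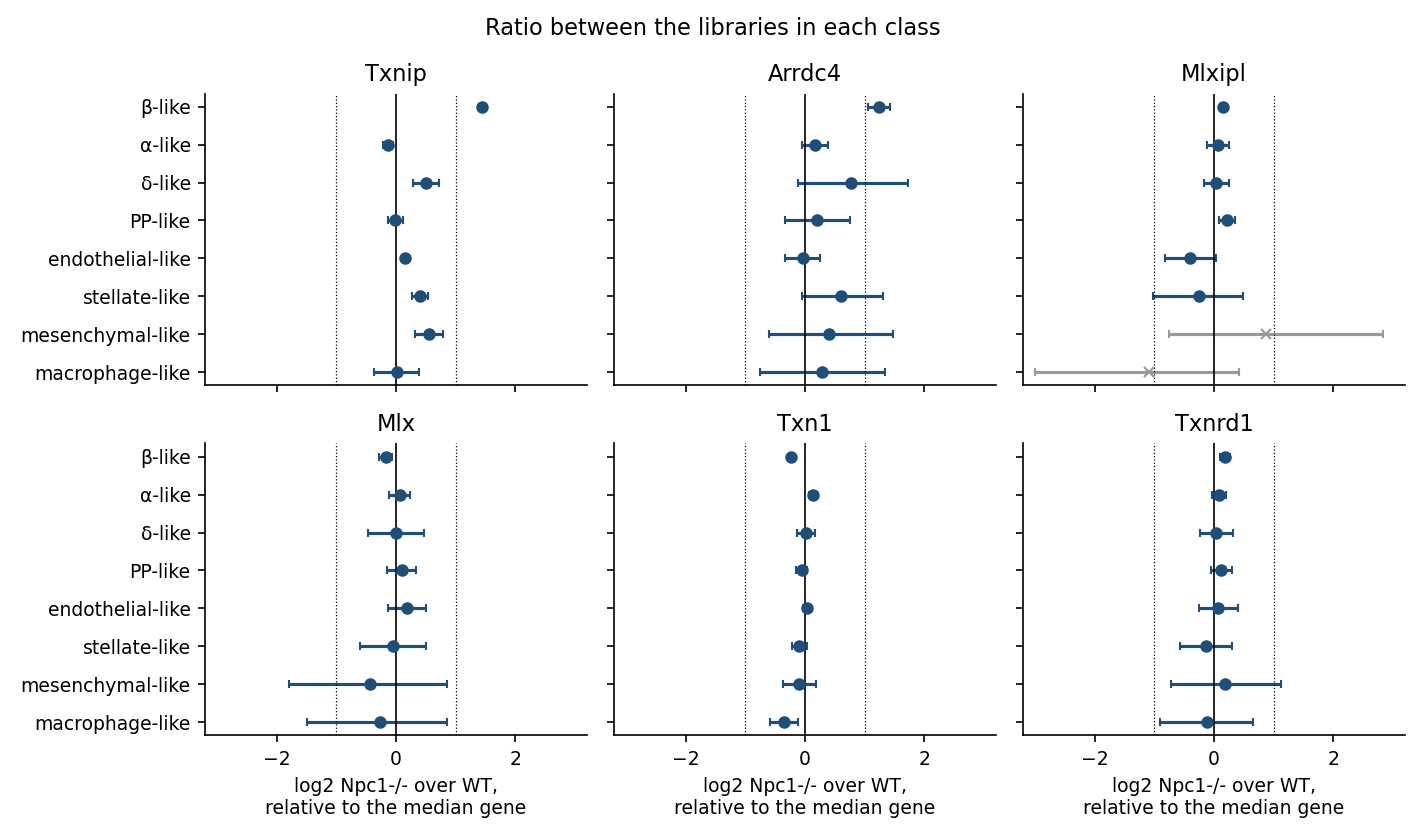
Log2 ratio of *Npc1*-/- over WT CPM relative to the median gene of the class, for the 6 members in 8 classes. Points are ratios between 2 libraries, bars are conditional binomial 95% intervals of counting error, dotted lines mark -1 and 1, and grey crosses mark *Mlxipl* in the 2 classes where it had too few counts; the 2 points beyond 1 are *Txnip* and *Arrdc4* in β-like barcodes.

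*Mlxipl* marked the β, δ and PP classes, at 156 and 188 CPM in β-like, 144 and 149 CPM in δ-like and 95.7 and 117 CPM in PP-like barcodes, WT and *Npc1*-/-. α-like barcodes held far less, 25.8 and 27.7 CPM, and endothelial-like barcodes 21.1 and 16.2 CPM. Its relative log2 ratio was 0.22 (0.09 to 0.36) in PP-like barcodes, and -0.016 there under the stricter cell filter. *Mlx* lay between 22.4 and 31.3 CPM in WT and between 16.3 and 35.4 CPM in *Npc1*-/- over the classes, and neighbours in that order had overlapping intervals. In CPM not corrected for insulin share, the β-like *Mlx* interval lay below those of α-like and PP-like barcodes in both libraries. It was 23.3 to 25.9 CPM in WT against 27.4 to 32.4 and 27.6 to 35.4 CPM. In *Npc1*-/- it lay around 23.7 CPM against intervals of 29.1 to 34.5 and 31.2 to 38.8 CPM. The highest *Mlxipl* and the lowest *Txnip* CPM of the WT library were both in β-like barcodes, without correction for insulin share. The *Mlxipl* intervals of WT β-like (153 to 159 CPM) and δ-like barcodes (130 to 159 CPM) overlapped.

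In CPM not corrected for insulin share, *Txn1* was lowest in β-like barcodes in both libraries, at 173 and 159 CPM. It was highest in endothelial-like barcodes, at 658 and 678 CPM. For *Txn1* in the other classes, ratios between the libraries are given here. The relative log2 ratio was 0.13 (0.07 to 0.19) in α-like and -0.35 (-0.58 to -0.11) in macrophage-like barcodes, the latter from 368 and 250 UMIs. *Txnrd1* was highest in δ-like barcodes, at 81.4 and 84.3 CPM, and lowest in endothelial-like barcodes, at 32.7 and 34.7 CPM. The interval of its relative log2 ratio excluded 0 in the β-like class and included it in the other 7. That ratio was above 0 in 6 classes, and intervals were wider where UMIs were fewer. It was 0.18 in β-like barcodes, from 2125 and 2586 UMIs. In mesenchymal-like barcodes it was 0.19 (-0.72 to 1.13), from 20 and 24 UMIs.

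Counted per barcode, more β-like barcodes held *Txnip* in *Npc1*-/-. With every barcode thinned to 10000 UMIs and 86 WT and 102 *Npc1*-/- shallower barcodes left out, 35.9% (33.7 to 38.2, exact binomial 95% interval) of 1747 WT barcodes of the β-like class, and 57.3% (54.9 to 59.7) of its 1724 *Npc1*-/- barcodes, carried a *Txnip* UMI. Without thinning the shares were 60.2% and 78.8%, at median depths of 30417 and 30094 UMIs. At least 3 *Txnip* UMIs were found in 7.27% (6.10 to 8.59) of thinned WT barcodes and in 26.2% (24.1 to 28.3) of thinned *Npc1*-/- barcodes, and they held 50.3% and 81.0% of the class's thinned *Txnip* UMIs. The median barcode had 0 *Txnip* UMIs in WT and 1 in *Npc1*-/-, and the 90th percentile was 2 in WT and 7 in *Npc1*-/-. The spread was wide, with a variance over mean of 3.36 in WT and 5.58 in *Npc1*-/- β-like barcodes, where equal levels in all barcodes would give about 1, and of 1.95 and 1.62 in α-like barcodes. After thinning, the *Npc1*-/- β-like class thus held a long tail of *Txnip*-rich barcodes beside 42.7% with none. The WT class had a thinner tail beside 64.1% with none, and the largest counts were 23 UMIs in WT and 25 in *Npc1*-/-.

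No class of these islets lacked *Txnip*, so a background share from free RNA could not be read for it. Insulin transcripts, which endothelial cells should lack, made up 1.61% (WT) and 0.877% (*Npc1*-/-) of the UMIs of endothelial-like barcodes. In α-like barcodes 62.0% of 970 WT and 61.9% of 792 *Npc1*-/- thinned barcodes had a *Txnip* UMI. For *Arrdc4* the thinned share in β-like barcodes was 6.47% (5.36 to 7.73) in WT and 13.3% (11.7 to 15.0) in *Npc1*-/-, and in α-like barcodes 16.1% and 15.3%.

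**Figure D3:**
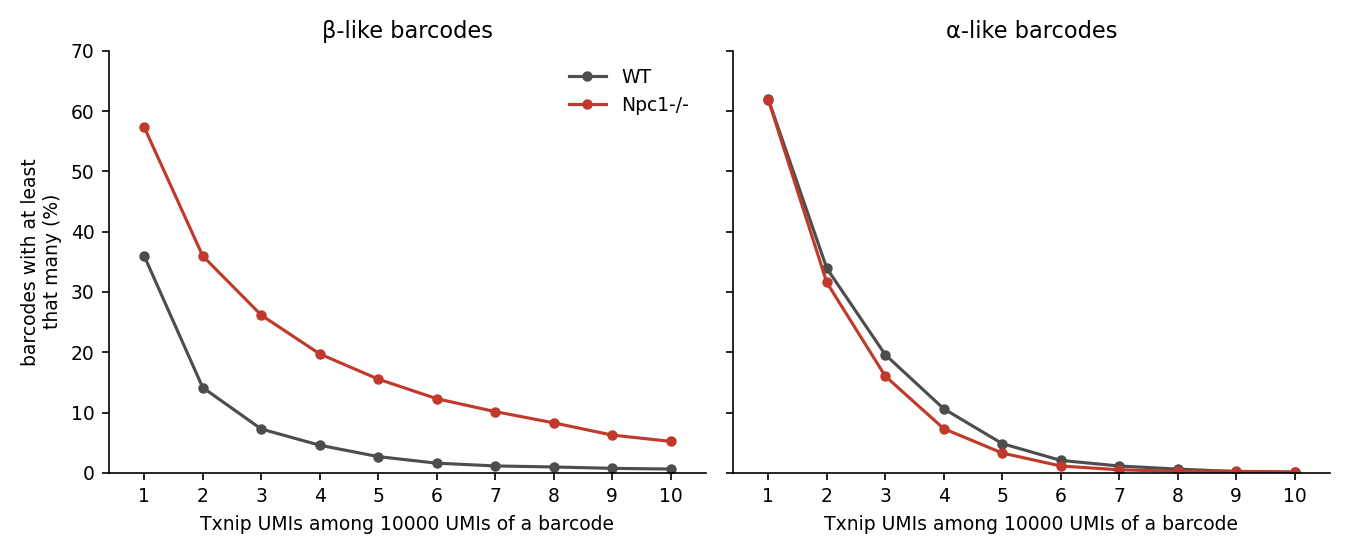
Share of barcodes, in percent, with at least the number of *Txnip* UMIs on the horizontal axis after thinning to 10000 UMIs, for β-like (left) and α-like barcodes (right) of the 2 libraries. The *Npc1*-/- line lies above the WT line at every count in β-like barcodes (26.2% against 7.27% at 3 UMIs). In α-like barcodes the 2 lines meet at 1 UMI (61.9% and 62.0%), and the *Npc1*-/- line is the lower at 3 UMIs (16.0% against 19.6%).

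*Arrdc4* went with *Txnip* from barcode to barcode in the β-like class. In the *Npc1*-/- library *Arrdc4* stood at 5.71 CPM (4.11 to 7.71) in thinned barcodes with 0 *Txnip* UMIs, 8.15 CPM (5.50 to 11.6) with 1, 16.0 CPM (10.5 to 23.2) with 2 and 41.9 CPM (36.1 to 48.3) with 3 or more. In the WT library the corresponding levels were 5.36, 5.51, 11.7 and 22.8 CPM (15.3 to 32.8). The intervals of the 2 libraries overlapped in barcodes with no *Txnip* UMI and did not overlap in those with 3 or more. The group with 3 or more has no upper limit and was not matched for *Txnip* level between the libraries. In α-like barcodes *Arrdc4* showed no such order, at 18.2, 19.9, 19.4 and 22.1 CPM in WT and 18.5, 10.8, 28.5 and 18.9 CPM in *Npc1*-/-. *Mlxipl* was level over the same *Txnip* groups, between 151 and 162 CPM in WT and between 186 and 193 CPM in *Npc1*-/- β-like barcodes, and *Txnrd1* between 35.8 and 40.9 and between 46.9 and 47.9 CPM. *Txn1* was higher in the *Npc1*-/- group with 3 or more *Txnip* UMIs, at 184 CPM (172 to 197), than in that with 0, at 144 CPM (136 to 153), but not in WT, at 164 CPM (142 to 188) with 3 or more and 173 CPM (165 to 181) with 0. Barcodes of 1 group share library and depth, and those with 3 or more *Txnip* UMIs came from shallower barcodes. Their medians before thinning were 26459 (WT) and 28079 UMIs (*Npc1*-/-), against 31446 and 32199 in those with 0. The *Txnip* groups were not matched for maturity markers or insulin share, with which both genes varied (*Txnip* is given further below). From the lowest to the highest of 3 insulin share bins, *Arrdc4* went from 9.91 to 3.85 CPM in WT and from 24.9 to 7.97 CPM in *Npc1*-/-.

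**Figure D4:**
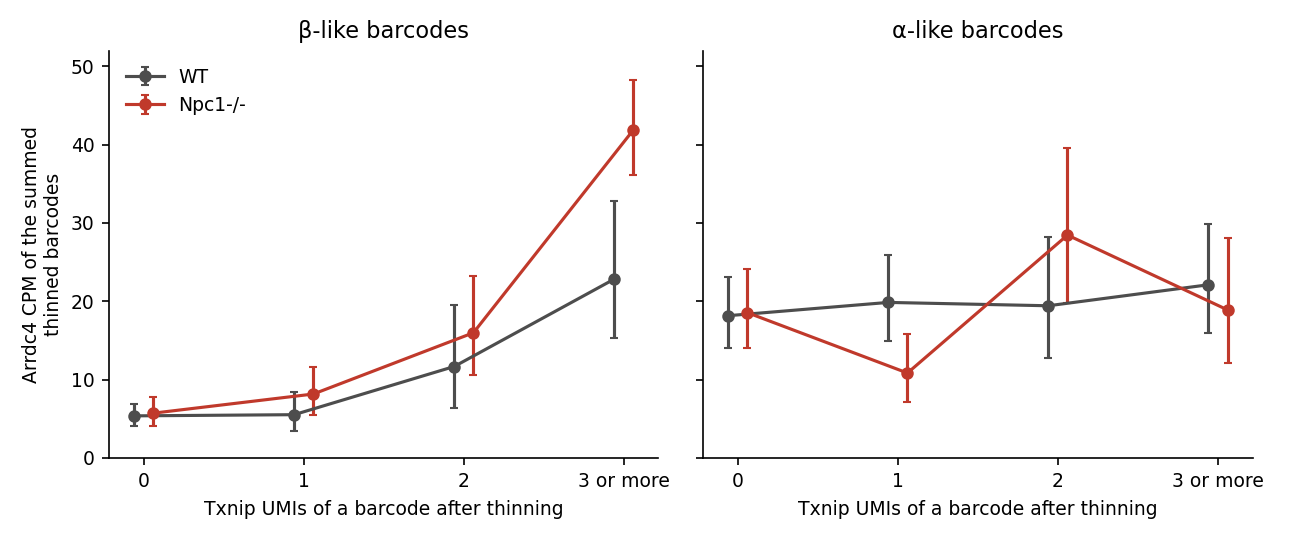
*Arrdc4* level in CPM, summed over thinned barcodes that held 0, 1, 2 or 3 or more *Txnip* UMIs, for β-like (left) and α-like barcodes (right) in each library, with exact Poisson 95% intervals. In β-like barcodes the level goes from 5.71 to 41.9 CPM in *Npc1*-/- and from 5.36 to 22.8 CPM in WT, while α-like barcodes show no such order.

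Within the β-like class *Txnip* varied with maturity markers, and also with UMIs per barcode, insulin share and mitochondrial share (given further below). Which of these it follows was not tested. β-like barcodes of both libraries together were split into 3 equal bins by *Ppy* plus *Pyy* CPM, hormones that immature β cells express at higher levels, or by *Ucn3* plus *Mafa* CPM, a peptide and a transcription factor of mature β cells. From the lowest to the highest *Ppy* plus *Pyy* bin, *Txnip* stood at 39.0, 62.0 and 125 CPM in WT and at 70.6, 162 and 315 CPM in *Npc1*-/-. From the lowest to the highest *Ucn3* plus *Mafa* bin the order was the opposite, at 119, 61.4 and 39.4 CPM in WT and 344, 152 and 60.6 CPM in *Npc1*-/-. In both splits *Txnip* was higher in *Npc1*-/- in every bin. The relative log2 ratio was 0.79 (0.66 to 0.92), 1.30 and 1.24 (1.16 to 1.32) over the *Ppy* plus *Pyy* bins, and 1.43 (1.35 to 1.51), 1.22 and 0.53 (0.40 to 0.67) over the *Ucn3* plus *Mafa* bins, the last 0.30 in the highest of 4 bins. The libraries filled the bins unequally, with 446 WT and 774 *Npc1*-/- barcodes in the highest *Ppy* plus *Pyy* bin and 693 WT and 527 *Npc1*-/- barcodes in the highest *Ucn3* plus *Mafa* bin. With the *Npc1*-/- bins weighted by the WT barcode numbers, the log2 ratio of *Txnip* CPM, before the median gene is taken off, was 1.26 and 1.30 in the 2 splits, against 1.57 without weights.

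*Arrdc4* took the same order, at 11.1, 5.78 and 3.61 CPM in WT and 27.5, 12.03 and 5.24 CPM in *Npc1*-/- from the lowest to the highest *Ucn3* plus *Mafa* bin. In that highest bin its relative log2 ratio was 0.45 (-0.01 to 0.91), from 77 and 87 UMIs. Over the *Ppy* plus *Pyy* bins it was 1.13, 1.10 and 0.93.

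**Figure D5:**
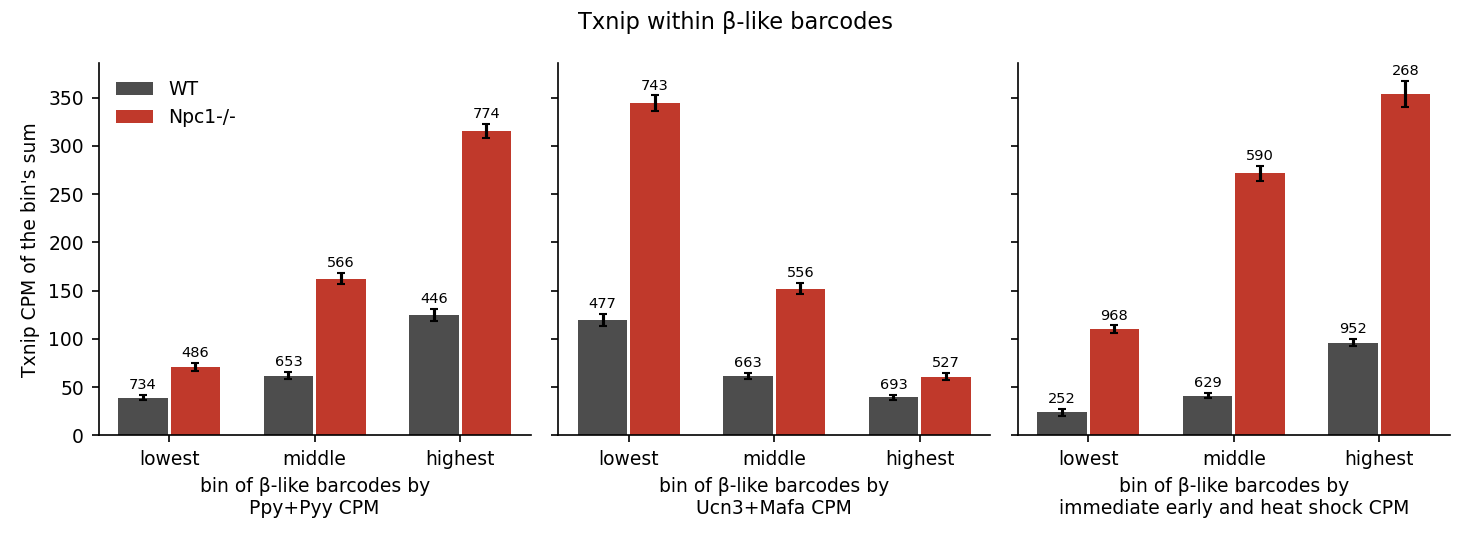
*Txnip* CPM of β-like barcodes in 3 bins, from the lowest to the highest, of summed *Ppy* and *Pyy* (left), *Ucn3* and *Mafa* (middle) and immediate early and heat shock CPM (right), in the WT and *Npc1*-/- library. Bars are the level of the bin's summed UMIs with exact Poisson 95% intervals and the number over each bar is its barcodes; the *Npc1*-/- bar is the higher in all 9 bins, by the least in the highest *Ucn3* plus *Mafa* bin (39.4 against 60.6 CPM).

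Immediate early and heat shock genes moved with genotype and with *Txnip*. Of the 15 genes of that list, 14 had enough counts in β-like barcodes, all 14 were below the median gene in *Npc1*-/- and 11 had a relative log2 ratio of at most -1 (0.497% of all genes), with a list median of -1.59 beside 0 for all genes. *Fos* was at 190 CPM in WT against 54.6 CPM in *Npc1*-/-, and *Hspa1a* at 133 and 29.3 CPM. The summed list made up 1929.7 CPM of WT and 1003 CPM of *Npc1*-/- β-like UMIs. Inside each library *Txnip* was higher where this sum was higher, at 23.9, 41.2 and 96.0 CPM in WT and 110 (106 to 114), 272 and 354 CPM in *Npc1*-/- from the lowest to the highest of 3 bins. The relative log2 ratio of *Txnip* within these bins was 2.10 (1.89 to 2.33), 2.50 (2.40 to 2.61) and 1.58 (1.51 to 1.66), each above the 1.45 of the whole class. For *Arrdc4* it was 0.995 (0.51 to 1.55), 1.87 and 1.52. These bins were added after the values were seen. In bins of UMIs per barcode, mitochondrial share and insulin share, also added later, the *Txnip* ratio lay between 1.10 and 1.65 and the *Arrdc4* ratio between 0.96 and 1.55. *Txnip* itself was lower in the highest than in the lowest of these bins. By UMIs per barcode it went from 111 to 47.4 CPM in WT and from 317 to 128 CPM in *Npc1*-/-. By insulin share it went from 109 to 41.8 and from 323 to 96.9 CPM, and by mitochondrial share from 81.8 to 39.1 and from 273 to 121 CPM.

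Of 30 genes listed as ChREBP targets, a list that includes *Txnip*, *Arrdc4* and *Mlxipl*, 20 had enough counts in β-like barcodes. Of the 17 that are not members, 12 lay above the median gene and their median was 0.25 (0.29 over all 20), beside 0 for all genes. A relative log2 ratio of at least 0.5 was reached by 5 of these 17 (2.16% of all genes) and of at most -0.5 by 0 (2.12% of all genes). A ratio of 1 was reached by 1 of the 17 (0.169% of all genes). The list was chosen with earlier results of these data known, so these counts are descriptions and support nothing by themselves. *Bhlhe40*, a transcriptional repressor of the circadian clock family, had a relative log2 ratio of 1.09 (0.82 to 1.37). At 2.92 CPM in WT against 6.78 CPM in *Npc1*-/-, it passed the floor of 5 CPM only through the *Npc1*-/- library. *Klf11*, a transcription factor of the insulin gene, was at 6.48 and 11.5 CPM, 0.71 (0.52 to 0.90). *Elovl6* (0.69), a fatty acid elongase, *Klf10* (0.53), a transcriptional repressor, and *Rgs16* (0.50), a regulator of G protein signalling, make up the 5 and are named after their values were seen. The glucose transporter *Slc2a2*, which is on this list as well as on that of glucose entry, was among the 5 of 20 below the median gene, at 268 and 220 CPM, -0.40 (-0.44 to -0.37). In the α-like class the list median was 0.03, and without the members 0 of 17 genes reached 0.5 (1.13% of all genes) while 2 reached -0.5 (1.47%). In the δ-like class it was 0.04, with 5 of the 21 genes that are not members at 0.5 or more (8.35% of all genes) and 1 at -0.5 or less (7.53%).

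Of the other 4 α-arrestin genes, 2 had enough counts in β-like barcodes, and both lay close to the median gene. *Arrdc1* was at 13.6 CPM in WT against 14.7 CPM in *Npc1*-/- β-like barcodes, a relative log2 ratio of -0.01 (-0.16 to 0.14). *Arrdc3* was at 14.3 and 15.2 CPM, -0.03 (-0.17 to 0.11). *Arrdc2* lay under the floor of 5 CPM, at 3.94 and 4.36 CPM, and *Arrdc5* had 0 UMIs in both libraries. Of the 13 genes of the MLX and MAX network, the family of dimerizing transcription factors around MLX, 10 had enough counts, and 1, *Mxd3*, lay beyond 0.5 in either direction (2.16% of all genes above and 2.12% below), at 7.19 and 4.88 CPM, -0.68 (-0.91 to -0.45). *Mnt*, a repressor that pairs with MLX, was at 8.27 and 11.3 CPM, 0.33 (0.15 to 0.51). *Mga* was at 0.16 (0.08 to 0.24).

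The thioredoxin and peroxiredoxin system as a whole lay slightly below the median gene in *Npc1*-/- β-like barcodes. Of 23 genes with enough counts, 4 were above the median gene and the list median was -0.20, with 1 of the 23 at -0.5 or less (2.12% of all genes), *Txnrd2*, the mitochondrial thioredoxin reductase, at 8.61 CPM in WT against 6.48 CPM in *Npc1*-/-, -0.53 (-0.73 to -0.33). The glutaredoxin *Glrx* was at -0.48 (-0.57 to -0.39) and the thioredoxin-like *Txnl1* at -0.40 (-0.45 to -0.35), while the stress-induced *Sesn2* was at 0.34 (0.20 to 0.49). The list for the oxidative stress factor NRF2 holds genes driven by it and also its regulator *Keap1*, at -0.23 (-0.31 to -0.15). Of the 11 genes of this list with enough counts, *Txnrd1* alone lay above the median gene, and the median was -0.10. *Taldo1* had the ratio farthest from 0 at -0.38 (-0.43 to -0.33), followed by *Nqo1* at -0.29 (-0.52 to -0.07). The inflammasome gene *Pycard*, the only member of its list of 6 with enough counts, was at 0.02 (-0.13 to 0.18). In α-like barcodes the thioredoxin list had a median of -0.01 and the NRF2 list of -0.06.

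Genes of glycolysis and glucose entry were also mostly lower relative to the median gene, with 3 of 15 above it and a list median of -0.22 in β-like barcodes, against -0.02 in α-like barcodes. *Pgk1* was at 64.2 CPM in WT against 47.5 CPM in *Npc1*-/-, -0.55 (-0.63 to -0.48), and *Pkm* at 367 and 321 CPM, -0.31 (-0.34 to -0.28). *Aldoc* was among the 3 above it, at 7.67 and 13.6 CPM, 0.71 (0.54 to 0.89). Of the FOXO and glucocorticoid responsive genes, a list that *Txnip* also belongs to, 14 had enough counts and the median was 0.15. Without *Txnip*, 9 of 13 lay above the median gene and their median was 0.14. Of these 13, 1 reached 0.5 (2.16% of all genes) and 2 reached -0.5 (2.12%). *Fkbp5*, a glucocorticoid target, was at 19.1 and 31.4 CPM, 0.60 (0.49 to 0.71), whereas *Ddit4* was at -0.66 (-0.83 to -0.50) and *Dusp1*, which is also on the immediate early list, at -2.18 (-2.32 to -2.05).

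The genes whose levels were most like *Txnip* over 7 classes in 2 libraries (14 points, Pearson correlation of log2 of CPM plus 1, 9314 genes) were *4930402H24Rik*, *Tns2*, *Kif1c*, *Sult1a1* and *Sipa1l2*, with coefficients of 0.96 to 0.97. *Tns2* stood at 101 and 139 CPM in endothelial-like and at 6.44 and 9.49 CPM in β-like barcodes, WT and *Npc1*-/-, so these genes share the high endothelial level of *Txnip*. *Arrdc4* had a coefficient of 0.87, *Txn1* 0.87, *Mlx* -0.17, *Txnrd1* -0.65 and *Mlxipl* -0.76. By rank from the top, *Arrdc4* was only number 1415 and *Txn1* number 1424 of the 9314 genes. The points of a class share their markers and those of a library their depth, and the coefficients are given as descriptions.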

How the data were processed

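Islets of 2 genotypes were profiled with 1 10x Genomics 3' library each (3 pooled mice per genotype). The labels and the study's methods name different versions of the kit. The authors deposited UMI counts, whole numbers for each gene in each barcode, for which the submitters' processing notes name Cell Ranger 3.1.0, Seurat 4.0.3 and mm10. The deposited matrices still held barcodes outside the study's limits, so a barcode was kept if it had over 1000 genes, under 50000 UMIs, less than 10% of UMIs from mitochondrial genes and no more than 0.1% from haemoglobin genes (the methods' wording reads the other way for haemoglobin). Doublets were not removed from the values reported, and were removed by Scrublet score (scanpy 1.11.5) in an alternative.

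UMIs were summed per class and library and divided by the total to give CPM, with exact Poisson 95% intervals. Ratios carry 0.5 added counts and are relative to the median gene among those that reached 5 CPM in a library of the class and 20 UMIs in both together, with conditional binomial intervals. For β-like barcodes a UMI count of 0 allows up to 3 counts, which is 0.0548 CPM in WT barcodes and 0.0554 CPM in those of *Npc1*-/-. The UMI ratio script was tested on simulated data. No test between genotypes was run. The members and gene lists were chosen with earlier results of these data known. Named genes were the 6 members, up to 4 genes per list with the largest relative ratio in β-like barcodes plus any of a list past 2-fold, and the 5 most like *Txnip*. Promoter windows and starts are from RefSeq (GRCm38.p6), which held all 6 members, and gene positions from GENCODE. Analyses used Python 3.11.15, scipy 1.17.1 and, for TMM factors, edgeR 4.0.16. Alternatives changed the cell filter, doublets, class rule, scaling, summary, floor, thinning, bins and correlation measure.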

Additional observations from a re-analysis of the deposited data

Results flagged for a closer look

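*Txnip* had intervals of opposite sign in different classes: its relative log2 ratio was 1.45 in β-like, 0.51 in δ-like, 0.55 in mesenchymal-like, 0.40 in stellate-like and 0.16 in endothelial-like barcodes but -0.14 in α-like barcodes. *Txn1* did so too, at 0.13 in α-like but -0.24 in β-like and -0.35 in macrophage-like barcodes. The α-like *Txnip* ratio was 0.00028 without the barcodes richest in immediate early and heat shock UMIs. Among the genes tested in each class, *Txnip* was at percentile 18.2 in α-like, 77.1 in endothelial-like and 99.97 in β-like barcodes. It was at 88.3 in stellate-like, 88.7 in mesenchymal-like and 91.8 in δ-like barcodes. *Txn1* was at 79.9 in α-like, 11.5 in β-like and 24.5 in macrophage-like barcodes. With 1 library per genotype the differences between classes were not tested.

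Barcodes outside the filters, which the comparisons above did not use, were of the same direction for *Txnip* and *Arrdc4*. They come from the same 2 libraries and are no independent support. In insulin-led barcodes with 50000 or more UMIs and under 10% mitochondrial UMIs (153 WT and 343 *Npc1*-/-), *Txnip* was at 41.5 and 116 CPM, a relative log2 ratio of 1.41 (1.26 to 1.56), and *Arrdc4* at 4.17 and 11.3 CPM, 1.35 (0.88 to 1.87). In insulin-led barcodes with 10% or more mitochondrial UMIs (1318 and 877, with medians of 1522.5 and 828 UMIs), *Txnip* was at 56.2 and 159 CPM, 1.47 (1.20 to 1.75), and *Arrdc4*, from 11 and 30 UMIs, at 3.42 and 17.0 CPM, 2.25 (1.25 to 3.43). *Mlxipl* in the barcodes with 10% or more mitochondrial UMIs was at -0.27 (-0.39 to -0.15), opposite in sign to its 0.15 in the kept β-like barcodes.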

How the results depend on the processing

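Ratios of the 6 members in 8 classes were recomputed under 14 alternatives, 672 values in all. Some could not move. Leaving out barcodes with a second hormone or with non-endocrine markers acts on hormone classes only. Changes of floor or scaling shift all genes of a class alike, and low counts give wide intervals. The counts that follow are therefore no measure of how firm the ratios are. Of the 672 values, 648 stayed within the counting interval first computed, 22 left it and 2 changed sign where that interval excluded 0. Changes of sign where the interval included 0 are not among those 2. For example, *Txnip* in PP-like barcodes kept its sign under 8 of 14 alternatives and *Mlx* in δ-like barcodes under 9. *Arrdc4* in β-like barcodes stayed within it under all 14 (1.21 to 1.39). *Txnip* in β-like barcodes left it with 1.34 under the looser cell filter, 1.55 under the stricter filter, 1.58 without barcodes of high doublet score, 1.57 as a plain CPM ratio and 1.84 without the barcodes richest in immediate early and heat shock UMIs. That last alternative, which took out 30.7% of WT and 5.04% of *Npc1*-/- β-like barcodes, also gave 0.00028 for *Txnip* in α-like barcodes, a change of sign, and 0.74 in δ-like barcodes. *Mlxipl* in PP-like barcodes changed sign to -0.016 under the stricter filter. The cause of these changes was not tested. The 15 β-like genes at a relative log2 ratio of 1 or more became 36 with totals without hormone genes, 24 as plain ratios, 66 with a floor of 1 CPM, 3 with a floor of 20 CPM, 656 with no floor and 27 without stressed barcodes. Thinning to 5000 UMIs lowered the share of β-like barcodes with a *Txnip* UMI to 21.9% in WT and 42.7% in *Npc1*-/-, and with an *Arrdc4* UMI to 3.04% and 8.70%, as fewer UMIs per barcode must. With 4 bins the *Txnip* ratio in the highest *Ucn3* plus *Mafa* bin was 0.30. By Spearman correlation 1 of the 5 genes most like *Txnip* was shared. No paired analysis was possible because each genotype has 1 library. Low counts limit *Mlxipl* in mesenchymal-like and macrophage-like barcodes (5 to 13 UMIs per library), *Mlx* in mesenchymal-like barcodes (13 and 10) and *Arrdc4*, with 15 to 50 UMIs per library, in δ-like, stellate-like, mesenchymal-like, macrophage-like and WT PP-like barcodes.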

Other observations

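Among the listed genes below the floor of 5 CPM in β-like barcodes, 2 are given here, chosen after their values were seen. These 2 do not stand for the other listed genes below that floor. *Pklr*, the pyruvate kinase gene whose promoter also held the spaced pair of E-box-like sites, had 95 WT and 154 *Npc1*-/- UMIs, and its relative log2 ratio was 0.59 (0.22 to 0.98). *Klf15*, a glucocorticoid-responsive transcription factor, had 127 and 244 UMIs, 0.84 (0.52 to 1.16).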
